A study of Mus musculus with 24 samples.

Results

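Torin1 and MK-8722 were compared directly in WT MEFs (mouse embryonic fibroblasts): 4 libraries of cells treated with torin1 against 4 libraries of cells treated with MK-8722, 8 of the 24 mRNA-seq libraries of the study. The members are all libraries that the labels give as wild type with either drug. The other libraries were WT MEFs with vehicle (DMSO) and *tfeb tfe3* DKO MEFs, which lack TFEB and TFE3, with DMSO, torin1 or MK-8722, again 4 in each group. The 4 libraries of a WT group came from cultures of passages 7, 8, 9 and 11, and values for single libraries are given below in that order. No group carried any other agent or allele, each drug was used at 1 dose, and how long the sequenced cells were treated is not given in the sources used here. Each genotype was 1 MEF line received from another laboratory, so that a group measures cultures of 1 line and not independent embryos.

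MTOR is a kinase that senses amino acids and growth factors. In its MTORC1 form it phosphorylates factors of translation, ribosome production and lipid synthesis and holds TFEB and TFE3 in the cytosol, and in its MTORC2 form it phosphorylates AKT, the kinase that keeps FOXO factors out of the nucleus. Torin1 blocks the catalytic site of MTOR and thereby both complexes. AMPK (AMP-activated protein kinase) responds to a fall in cellular energy by restraining synthesis of lipids and proteins and favouring glucose uptake and fat oxidation, and MK-8722 activates it directly and allosterically. Inhibition of MTOR and activation of AMPK are both known to bring TFEB and TFE3 to the nucleus, so that the contrast between them asks which part of the transcriptional response is not common to inhibition of MTOR and activation of AMPK.

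The WT libraries held 25185165 to 33332562 estimated counts, with RIN (RNA integrity) values of 9.8 to 9.9. The cells expressed fibroblast markers in every library: the 15 markers summed to 8072 to 10470 CPM (counts relative to the scaled total of the library) in the torin1 and 7029 to 9821 CPM in the MK-8722 libraries, against 7.36 to 11.7 and 10.9 to 11.5 CPM for 7 leukocyte markers, 29.3 to 36.3 and 25.6 to 29.7 CPM for 7 epithelial markers and 1.33 to 1.74 and 1.41 to 2.13 CPM for 7 endothelial markers. Along the first principal component of the 12 WT libraries (41.4% of the variance) torin1 lay apart from MK-8722 and DMSO, and along the third (12.8%) MK-8722 lay apart from DMSO. The second component (19.8%) set the libraries of passage 11 apart from the rest, and 40 interferon-stimulated genes summed to 7223 to 8323 CPM in the 3 WT libraries of that passage and to 1299 to 2360 CPM in the other 9. All 3 treatments had 1 such library, and of the 40 genes 1 was called in the contrast of the drugs.

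Torin1 and MK-8722 left the WT cells with widely different transcriptomes. Of 15401 genes tested, 3833 (24.9%) were higher with torin1 and 3083 (20%) were higher with MK-8722, where a gene was called at a fold change (FC) of at least 1.2 and an FDR below 0.05 by edgeR's quasi-likelihood test. CPM are relative to all mRNA of a culture, so that fewer cells expressing a gene and less of its RNA per cell cannot be told apart. At least 2-fold apart were 977 genes higher with torin1 and 272 higher with MK-8722. The torin1 and MK-8722 libraries did not overlap for 3290 of the 3833 and 2865 of the 3083 genes, where among all genes tested all 4 torin1 libraries were above all 4 MK-8722 libraries for 26.5% and below them for 25.6%. The split of the calls moved with the scaling: with library size alone in place of TMM, 66.3% of the calls were higher with torin1, against 55.4% with TMM. Without the WT libraries of passage 11, 3509 and 3304 genes were called. With passage as a block they were 4102 and 3160.

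Against DMSO, which both comparisons share, torin1 upregulated 26.6% and downregulated 20.5% of the genes tested, and MK-8722 upregulated 10.3% and downregulated 5.87%. For 131 genes (0.851%) torin1 upregulated and MK-8722 downregulated the transcript, and for 149 genes (0.967%) torin1 downregulated and MK-8722 upregulated it. These counts moved with the call rule, to 19 and 35 by a test against a fold change of 1.2 (glmTreat) and to 349 and 452 by the FDR alone. The count of 131 was 85 with no filter on low counts and 201 with passage as a block, by which the MK-8722 and DMSO libraries deviated together. The sign of the direct contrast is fixed for these genes by how they were chosen and is given as a description. The median change from DMSO was 0.59 with torin1 and -0.45 with MK-8722 on the log2 scale for the 131 genes, and -0.50 with torin1 and 0.42 with MK-8722 for the 149 genes. Torin1 moved 14 of the 131 genes at least 2-fold from DMSO and MK-8722 9 of them, and of the 149 genes torin1 moved 13 and MK-8722 5 by that much.

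**Figure D1:**
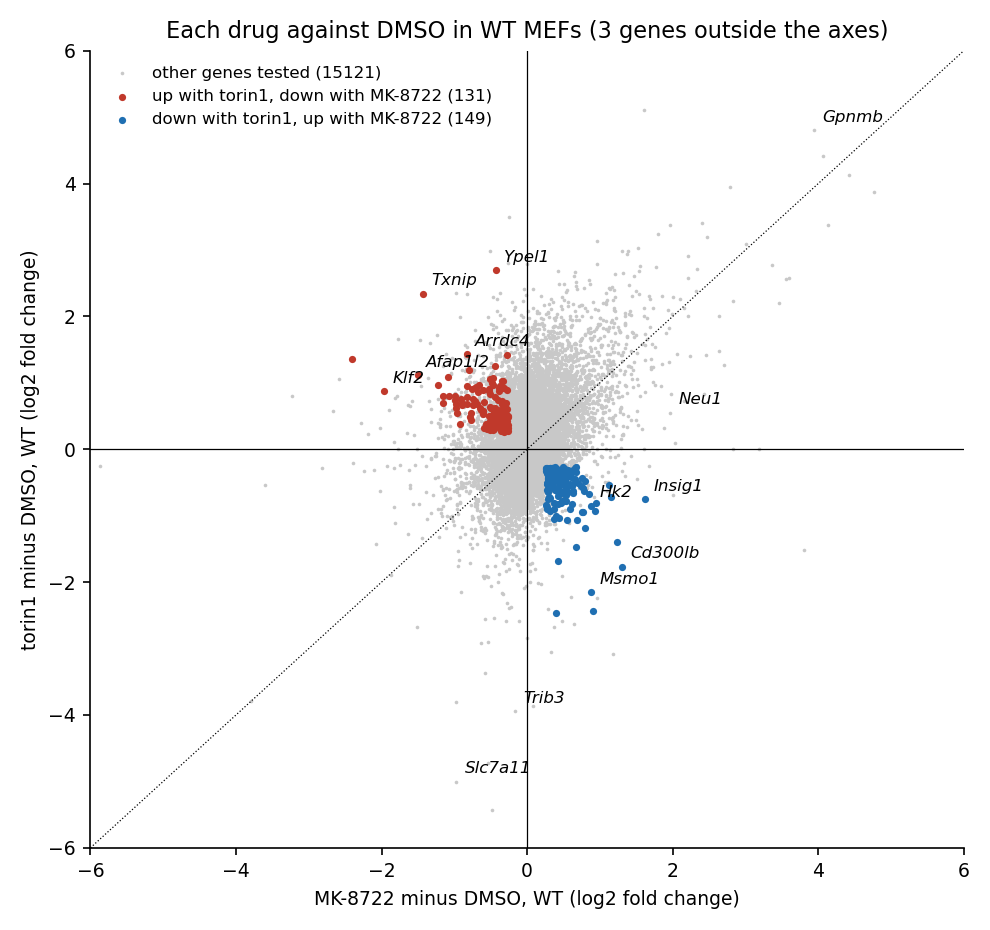
Log2 fold change against DMSO in WT MEFs with MK-8722 (x axis) and with torin1 (y axis), 1 point per gene, both against the same 4 DMSO libraries. The 131 genes up with torin1 and down with MK-8722 lie in the upper left and the 149 genes down with torin1 and up with MK-8722 in the lower right; 3 genes lie outside the axes.

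The gene with the largest difference higher with torin1, among those named by rule, was Txnip (ENSMUSG00000038393; chr3:96557957-96561883, GRCm38, plus strand), which encodes an arrestin-like protein that draws glucose transporters from the cell surface and binds thioredoxin. Txnip was at 82.3, 87.8, 105 and 126 CPM with torin1, at 9.96, 5.39, 4.12 and 9.82 CPM with MK-8722 and at 24, 15.3, 15.7 and 23.6 CPM with DMSO. Every torin1 library lay above, and every MK-8722 library below, all DMSO libraries. The direct difference was 13.7-fold (log2 3.78, SE 0.26, adjusted p = 4.25e-11), from a log2 change against DMSO of 2.35 with torin1 and -1.44 with MK-8722. Its paralog Arrdc4 (chr7:68736995-68749241, minus strand), likewise a regulator of glucose transporters, was at 5.49, 5.62, 4.73 and 5.75 CPM with torin1, at 1.60, 0.841, 0.991 and 1.07 CPM with MK-8722 and at 2.52, 1.57, 1.60 and 2.23 CPM with DMSO. For Arrdc4 the torin1 libraries stood apart from the other 8, while the highest MK-8722 library overlapped the DMSO range. The direct difference was 4.80-fold (log2 2.26, SE 0.22, adjusted p = 1.07e-08).

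Txnip and Arrdc4 belong to a list of 8 tested genes for TXNIP, the arrestin domain family and the MLX factors, sensors of glucose metabolites that bind E-boxes. All 8 were called in the direct contrast, 6 higher with torin1 and 2 higher with MK-8722, with a median of 0.63 on the log2 scale beside 0.05 for all genes tested. The smaller differences were 1.60-fold for Arrdc1 (log2 0.68), 1.51-fold for Arrdc2 (0.59) and 1.73-fold for Klf10 (0.79), a target of glucose and TGF-beta signals, and Arrdc3 differed by 0.47. Mlx itself went the other way: it was at 23.4, 25, 24.8 and 23.3 CPM with torin1 and at 44.5, 46.4, 45.1 and 41.9 CPM with MK-8722, with DMSO between them at 34.9 to 37.8 CPM. The groups did not overlap (log2 -0.88, SE 0.04, adjusted p = 5.66e-14), and its partner Mlxip differed by -0.31 and was not called with library size alone (-0.23).

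Sequence before the start of 3 of these oppositely moved genes is shown with the motif known to be bound by factors that AKT or glucose controls. The sequences are from RefSeq (GRCm38.p6), 5′ to 3′ on the strand of the gene, with the motif in capitals. The first pair holds GTAAACA, which FOXO factors bind, at chr3:96557796-96557882 (plus strand) for Txnip and chr2:128125788-128125857 (plus strand) for Bcl2l11, and Arrdc4 holds the E-box CACGTG at chr7:68749386-68749471 (minus strand).
Txnip: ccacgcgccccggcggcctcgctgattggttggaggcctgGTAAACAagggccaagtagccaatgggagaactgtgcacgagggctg
Bcl2l11: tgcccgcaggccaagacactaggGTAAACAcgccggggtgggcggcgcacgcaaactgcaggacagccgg
Arrdc4: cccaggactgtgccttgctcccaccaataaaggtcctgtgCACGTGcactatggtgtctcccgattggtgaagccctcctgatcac
GTAAACA was searched on both strands in 300 bases around the start. It was found for 10 of the 101 genes up with torin1 and down with MK-8722 that have a promoter in the table (9.90%), for 2 of 109 genes moved the opposite way (1.83%), for 3.65% of all 32851 promoters and for 2.93% of the tested genes with a promoter. CACGTG was found for 8 of the 101 genes (7.92%) and 16 of the 109 genes moved the opposite way (14.7%). It was found for 7.15% of all promoters and 11.6% of tested genes with a promoter. In the list of TXNIP, the arrestin domain family and the MLX factors 2 of 7 genes with a promoter held it (28.6%), and Txnip was not among these. A match is a description of these letters and not a site.

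Klf2 (chr8:72319033-72321656, plus strand), a transcription factor of quiescence that FOXO and MEF2 factors are known to induce, was at 13.3, 17.4, 16.5 and 19.4 CPM with torin1, at 2.45, 2.52, 2.30 and 2.04 CPM with MK-8722 and at 7.56, 9.22, 8.62 and 10.9 CPM with DMSO. The 3 treatments did not overlap at any library. The direct difference was 7.14-fold (log2 2.83, SE 0.14, adjusted p = 2.92e-13), and the larger part of it lay with MK-8722 (-1.96 against DMSO, beside 0.87 for torin1). Ccng2, a cyclin that accompanies cell cycle exit and a FOXO target, was at 28.1, 29.8, 30.0 and 30.7 CPM with torin1, at 8.37, 10.3, 9.59 and 8.46 CPM with MK-8722 and at 9.84, 11.5, 13.8 and 14.6 CPM with DMSO. Here MK-8722 overlapped DMSO at the edge, and the change lay mainly with torin1 (log2 1.25, beside -0.44 for MK-8722). Bcl2l11, which encodes the pro-apoptotic protein BIM, was at 15.4 to 18.7 CPM with torin1, 8.73 to 10.1 CPM with MK-8722 and 12.8 to 13.7 CPM with DMSO, without overlap between any of the groups (direct log2 0.79, SE 0.09, adjusted p = 4.90e-08).

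Other genes of this kind were a mixed set. Ypel1, of a family of small zinc-binding proteins, was at 7.28 to 8.95 CPM with torin1, 0.767 to 1.21 CPM with MK-8722 and 1.01 to 1.60 CPM with DMSO (8.70-fold between the drugs). Afap1l2, an adaptor of SRC signalling, was at 13.6 to 19.5 CPM with torin1, 2.11 to 3.44 CPM with MK-8722 and 6.17 to 9.70 CPM with DMSO. Atoh8, a basic helix-loop-helix transcription factor, was at 10.8 to 14.5, 2.02 to 3.25 and 5.60 to 7.62 CPM with torin1, MK-8722 and DMSO. For Afap1l2 and Atoh8 the 3 treatments did not overlap, whereas Ypel1 with MK-8722 overlapped DMSO. Kcnj2, an inward rectifier potassium channel, differed 3.17-fold between the drugs and Tcp11l2 4.0-fold. Mmp9, a gelatinase, was at 7.18 to 10.4 CPM with torin1, 2.17 to 3.37 CPM with MK-8722 and 4.55 to 5.18 CPM with DMSO, again 3 separate ranges. Pdk4, the kinase that shuts pyruvate out of the mitochondrion, differed 2.35-fold between the drugs (0.59 with torin1 and -0.64 with MK-8722 against DMSO), and Fas, a death receptor, 2.82-fold (0.76 and -0.74).

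**Figure D2:**
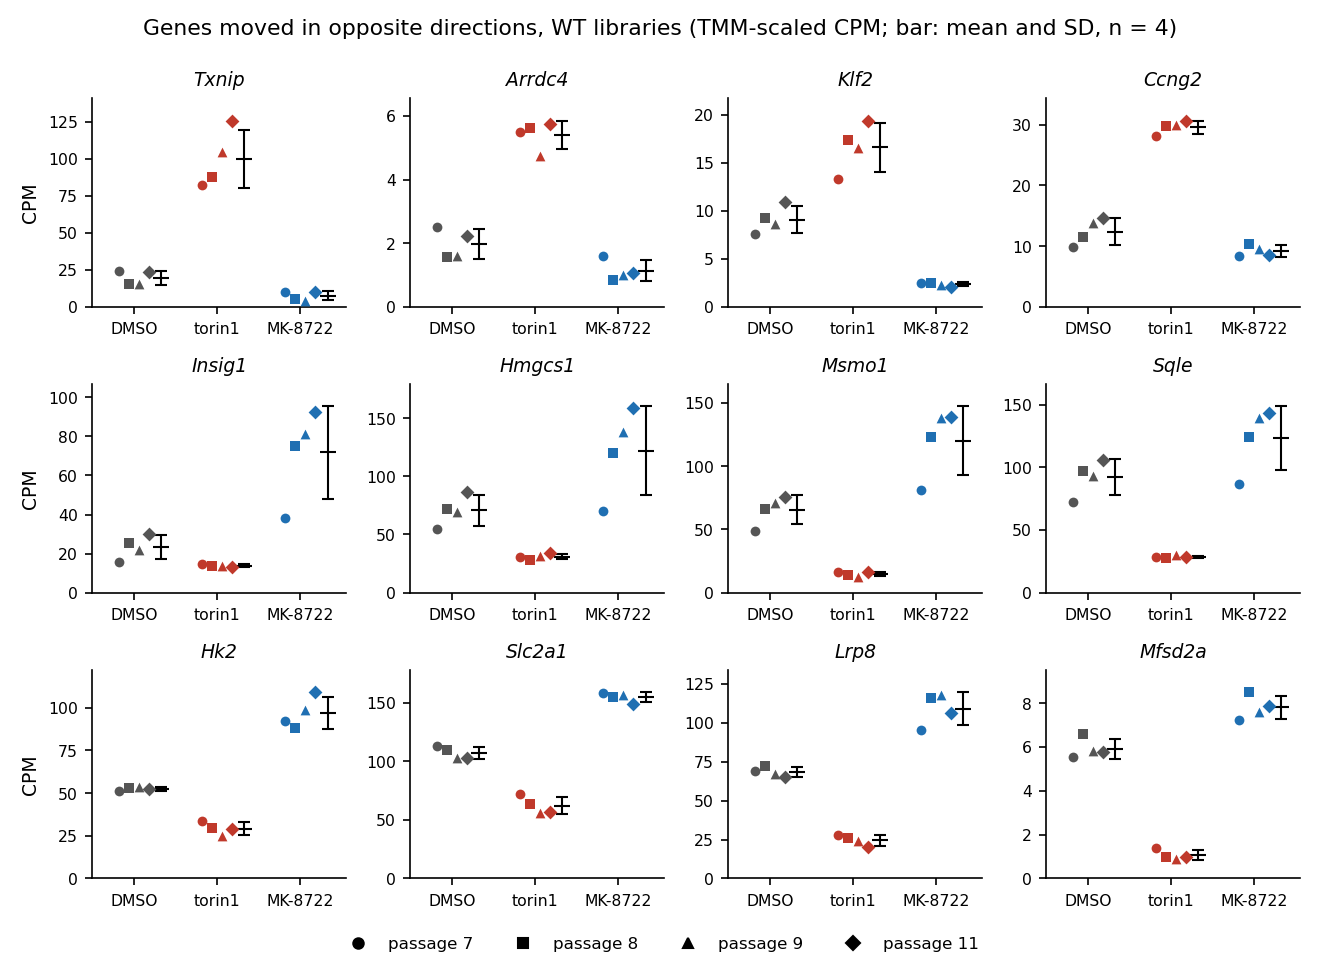
CPM (linear axis from 0) of 12 genes that the drugs moved in opposite directions from DMSO in WT MEFs, 1 point per library with its passage as the symbol, and bars for mean and SD (n = 4). Txnip, Arrdc4, Klf2 and Ccng2 are highest with torin1, and the other 8, from Insig1 to Mfsd2a, are lowest with torin1 and highest with MK-8722.

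Sterol synthesis genes were lower with torin1 than with MK-8722. Of 24 tested genes of cholesterol synthesis and uptake, which the factor SREBF2 induces when membrane sterol falls, 23 were higher with MK-8722 and none was higher with torin1. The remaining gene, Ebp, differed by -0.18. The median was -1.32 on the log2 scale, from -0.80 with torin1 and 0.51 with MK-8722 against DMSO, and 12 of the 24 were called down with torin1 and up with MK-8722. The torin1 libraries lay below all MK-8722 libraries for 24 of the 24.

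Insig1 (ENSMUSG00000045294; chr5:28071363-28078662, plus strand), the sterol sensor that retains SREBF proteins in the ER, was at 14.7, 13.8, 13.7 and 13.1 CPM with torin1, at 38.0, 75.0, 81.5 and 92.5 CPM with MK-8722 and at 15.9, 25.4, 21.7 and 30.1 CPM with DMSO. The lowest DMSO library came near the torin1 libraries without meeting them, and the increase with MK-8722 (log2 1.63) was larger than the decrease with torin1 (-0.75).

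Enzymes along the pathway followed the same order. Hmgcs1, which makes HMG-CoA, was at 30.3, 28.3, 31.3 and 33.7 CPM with torin1 and at 69.9, 120, 138 and 159 CPM with MK-8722. Msmo1, a sterol C4 demethylase, was at 12.4 to 16.3 CPM with torin1, 81.0 to 139 CPM with MK-8722 and 49.1 to 75.4 CPM with DMSO. For both enzymes torin1 stood apart from both other treatments. Hmgcs1 differed 3.95-fold between the drugs, and Msmo1 differed 8.19-fold (log2 -3.03, SE 0.18, adjusted p = 3.06e-12). Sqle, the epoxidase that commits squalene to sterols, was lower with torin1 by 4.29-fold and was the weakest riser of the named enzymes with MK-8722 (0.42 against DMSO, adjusted p = 0.0144). Idi1, the isomerase of isoprenoid units, was 5.25-fold lower with torin1. Its change with MK-8722 did not pass the test, which used no passage block (0.48, adjusted p = 0.0827). The MK-8722 library of passage 7 was the lowest of its group for 24 of the 24 genes. Without that library 23 of the 24 were still called higher with MK-8722.

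The genes of the SREBF factors themselves differed from each other. Srebf2 was at 224 to 253 CPM with torin1, against 413 to 547 CPM with MK-8722 (log2 -1.06, SE 0.10, adjusted p = 3.41e-09), beside 365 to 454 CPM with DMSO. Srebf1 was at 138 to 150, 135 to 160 and 133 to 155 CPM with torin1, MK-8722 and DMSO, and the groups overlapped fully (log2 -0.03, SE 0.06, adjusted p = 0.636). Among 15 fatty acid synthesis genes, which SREBF1 induces, 8 were higher with MK-8722 and 1 with torin1, with a median of -0.40. Scd2, a fatty acid desaturase, was 4.70-fold lower with torin1 and Fasn, the fatty acid synthase, 2.13-fold lower. Against DMSO the changes with MK-8722 were 0.20 for Scd2 and 0.17 for Fasn and did not pass the test. No gene of this list was called with MK-8722 in the fit, which had no passage block. The gene higher with torin1 was Acacb, the acetyl-CoA carboxylase of the mitochondrial surface (log2 1.43). Lrp8, a lipoprotein receptor, and Mfsd2a, a transporter of lysolipids, were moved in opposite directions as well: Lrp8 was at 19.9 to 28.1 CPM with torin1, 95.2 to 118 CPM with MK-8722 and 65.0 to 72.5 CPM with DMSO, and Mfsd2a at 0.890 to 1.38, 7.24 to 8.49 and 5.53 to 6.57 CPM.

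The sterol regulatory element is shown once, for the gene of this list that holds it before its start. Hmgcs1 (chr13:119690174-119690262, plus strand, GRCm38.p6, from RefSeq) carries TCACNCCAC in capitals.
Hmgcs1: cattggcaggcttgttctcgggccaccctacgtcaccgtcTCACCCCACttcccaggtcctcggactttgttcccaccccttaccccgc
These letters were found on either strand for 1 of 17 sterol genes with a promoter (5.88%) and for 1.24% of all promoters.

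Transcripts of glucose uptake and glycolysis genes also separated the drugs. Of 26 tested entries for 25 gene symbols, entries of a shared symbol being counted separately, 15 were higher with MK-8722 and 3 with torin1, with a median of -0.35. Hk2, Slc2a1 and Pfkfb4 were moved in opposite directions from DMSO. Hk2 (chr6:82725025-82774454, minus strand), the hexokinase that traps glucose, was at 33.6, 29.4, 24.7 and 28.9 CPM with torin1, at 91.9, 88.2, 98.7 and 109 CPM with MK-8722 and at 51.0, 53.1, 53.7 and 52.5 CPM with DMSO. The 3 treatments formed separate ranges (direct log2 -1.73, SE 0.08, adjusted p = 1.07e-13). Slc2a1 (chr4:119108711-119137983, plus strand), which encodes the glucose transporter GLUT1 and thus a target of TXNIP, was at 72.2, 63.8, 55.7 and 57.0 CPM with torin1, at 158, 155, 157 and 149 CPM with MK-8722 and at 113, 110, 103 and 103 CPM with DMSO. It too formed 3 ranges without overlap (2.49-fold between the drugs). Pfkfb4 and Pfkfb3, enzymes that set the level of the activator of phosphofructokinase, differed by -0.96 and -0.55 on the log2 scale. The 3 genes higher with torin1 were Slc2a3 (0.72), another glucose transporter, Pfkfb1 (0.66) and Ldhb (0.28). Ldhb lost its call under 10 of 27 alternatives, and Slc2a3 with an offset for transcript length (0.91). Of 17 further HIF1 targets 10 were higher with MK-8722 and 4 with torin1, and Vegfa, the angiogenic growth factor, was at 44.5 to 56.9 CPM with torin1, 93.6 to 106 CPM with MK-8722 and 69.6 to 73.1 CPM with DMSO.

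Cd300lb, an immunoglobulin-like receptor, was 8.42-fold lower with torin1 than with MK-8722 and Trim54, a RING protein of the cytoskeleton, 6.16-fold lower. Hmox1, the heme oxygenase induced by NRF2, was at 28.8 to 31.5 CPM with torin1, against 60.8 to 79.2 CPM with MK-8722, with DMSO at 45.8 to 51.9 CPM. It was 1 of 14 of the 22 NRF2 antioxidant genes that were higher with MK-8722, and none was higher with torin1 (median -0.47).

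Slc7a11, Trib3 and Chac1, each over 10-fold higher with MK-8722, belong to the transcriptional program of ATF4, the factor that MTORC1 and the integrated stress response both drive and that induces amino acid uptake and synthesis. Of 16 tested stress factors of the ATF4 and CHOP list, 14 were higher with MK-8722 and none with torin1, with a median of -1.47, from -1.62 with torin1 and 0.02 with MK-8722 against DMSO. The 2 genes not called were Nupr1 (-0.45) and Ppp1r15a (-0.25). Of 12 asparagine, proline and cystine genes 10 were higher with MK-8722 (median -1.09), of 17 serine and one-carbon genes 12 (median -0.39), of 18 amino acid transporters of the plasma membrane 11 (median -0.67) and of 20 cytosolic aminoacyl-tRNA synthetases 15 (median -0.63).

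**Figure D3:**
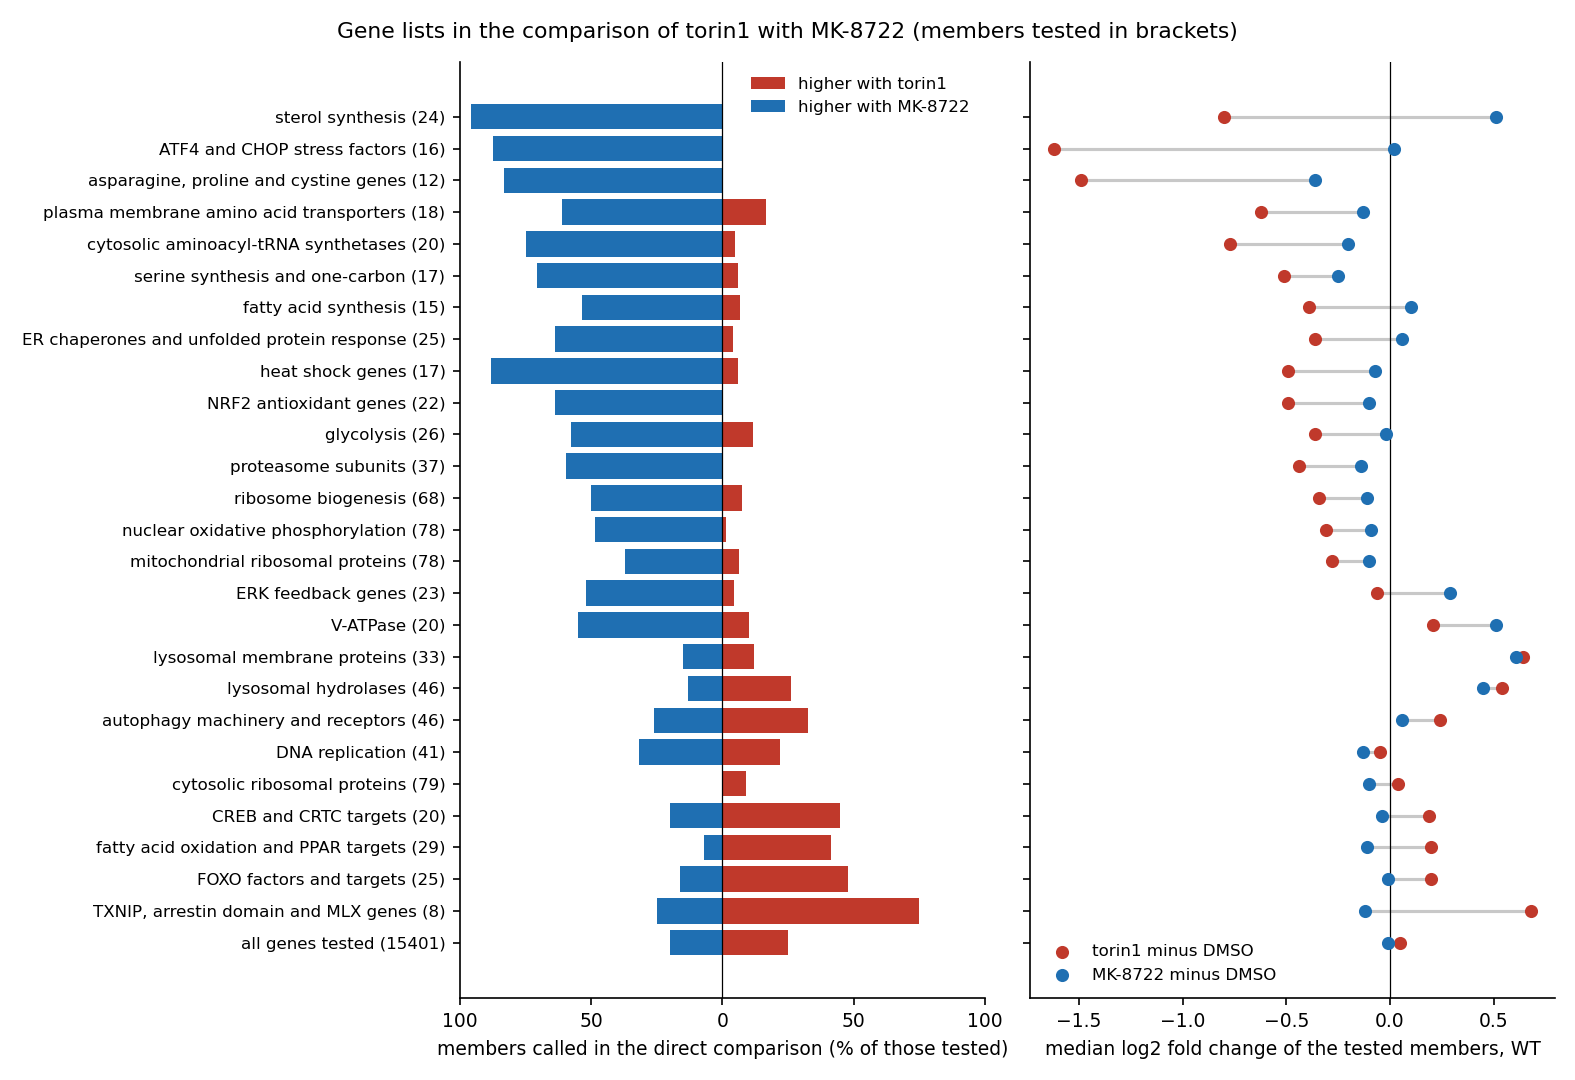
Gene lists in the contrast of torin1 with MK-8722 in WT MEFs. Left, percent of tested members called higher with torin1 or higher with MK-8722 beside the percent of all genes tested. Right, the median log2 fold change of each list against DMSO with either drug. The sterol synthesis genes lie at -0.80 with torin1 and 0.51 with MK-8722, while the ATF4 and CHOP list lies at -1.62 and 0.02.

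Atf4 (chr15:80255184-80257541, plus strand) was at 183, 182, 187 and 203 CPM with torin1, at 482, 460, 512 and 513 CPM with MK-8722 and at 501, 477, 542 and 532 CPM with DMSO. MK-8722 and DMSO overlapped, and torin1 lay 2.6-fold below MK-8722 (log2 -1.38, SE 0.10, adjusted p = 7.16e-11). Slc7a11 (ENSMUSG00000027737; chr3:49892526-50443614, minus strand), the cystine-glutamate exchanger, was at 0.690, 0.394, 0.349 and 1.08 CPM with torin1, at 17.6, 6.19, 6.49 and 11.3 CPM with MK-8722 and at 26.5, 16.3, 21.1 and 17.4 CPM with DMSO. All torin1 libraries were near the lower end of what was measured, and MK-8722 overlapped DMSO only through its library of passage 7. The difference was 16.3-fold (log2 -4.03, SE 0.49, adjusted p = 2.78e-07).

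Trib3, a pseudokinase that binds AKT and ATF4, was at 3.10, 4.01, 3.43 and 5.62 CPM with torin1 and at 57.8, 42.7, 53.7 and 66.3 CPM with MK-8722, 13.6-fold apart. Chac1, which degrades glutathione, was at 8.56, 9.17, 5.85 and 8.00 CPM with torin1 and at 72.5, 72.6, 86.4 and 96.6 CPM with MK-8722, 10.4-fold apart. Atf3, a stress-induced repressor, was at 1.88, 2.29, 1.49 and 2.71 CPM with torin1 and at 6.85, 7.76, 8.25 and 14.5 CPM with MK-8722, 4.47-fold apart. In each of the 3, MK-8722 overlapped DMSO and torin1 did not. Fgf21, a stress hormone, had 0 counts in the 4 torin1 libraries and 52 in the 4 MK-8722 libraries (0.476 CPM), so that with a floor of 3 counts over the group it was at least 18-fold lower with torin1. Ddit3, the gene of CHOP, differed in kind: it was at 15.6 to 25.6 CPM with torin1, 26.1 to 46.9 CPM with MK-8722 and 11.6 to 16.8 CPM with DMSO, and it rose with MK-8722 (1.22, adjusted p = 4.97e-05) while its change with torin1 did not pass the test (0.36, adjusted p = 0.121).

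The same order was measured for 2 inhibitors of MTORC1 that ATF4 is known to induce. Ddit4, which acts through the TSC complex, was at 6.27 to 7.34 CPM with torin1, against 32.0 to 38.3 CPM with MK-8722, 5.19-fold apart, and Sesn2, a leucine sensor, at 18.7 to 22.1 and 56.0 to 63.2 CPM, 2.93-fold apart. Eif4ebp1, the MTORC1 substrate that represses translation, was 2.17-fold lower with torin1. Deptor, an inhibitory subunit of both MTOR complexes, went the other way, at 17.6 to 19.7 CPM with torin1, 7.92 to 11.2 CPM with MK-8722 and 10.6 to 12.8 CPM with DMSO (direct log2 0.95, SE 0.12, adjusted p = 3.15e-07). It was called up with torin1 and down with MK-8722.

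Amino acid enzymes and transporters showed a graded picture. Asns, the asparagine synthetase, was at 129, 106, 119 and 128 CPM with torin1, at 410, 229, 259 and 303 CPM with MK-8722 and at 501, 344, 425 and 352 CPM with DMSO. Psat1, of serine synthesis, was at 230 to 265, 514 to 819 and 812 to 1045 CPM with torin1, MK-8722 and DMSO. Both were lowest with torin1, and both were also lower with MK-8722 than with DMSO (log2 -0.43, adjusted p = 0.0286 for Asns and -0.56, adjusted p = 5.74e-04 for Psat1). Psph, the next enzyme of that pathway, was at 15 to 15.7 CPM with torin1, against 46.1 to 81.3 CPM with MK-8722, and Mthfd2, of mitochondrial folate metabolism, was 5.59-fold lower with torin1 than with MK-8722 and changed by -0.11 with MK-8722 (adjusted p = 0.484). Slc7a5, the large neutral amino acid transporter, and Slc7a1, the cationic one, differed 2.46-fold and 3.07-fold. The 3 transporters higher with torin1 were Slc7a7 (0.97), Slc43a2 (0.77) and Slc7a2 (0.75). Slc7a7 was not called with an offset for transcript length (0.70) or without the WT libraries of passage 11 (0.65).

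Among the synthetases that charge transfer RNA, Aars was at 351, 341, 339 and 359 CPM with torin1 and at 885, 725, 762 and 861 CPM with MK-8722, 2.33-fold apart (log2 -1.22, SE 0.10, adjusted p = 8.53e-10). Yars differed 2.56-fold, Tars 1.78-fold and Iars 1.56-fold, and Yars, Tars and Iars were lower with MK-8722 than with DMSO as well (-0.30, -0.43 and -0.33), while Aars was not called (-0.12). The MK-8722 library of passage 7 was the highest of its group for Asns, Psat1, Psph, Slc7a5, Slc7a11, Aars, Tars, Iars and Yars.

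Promoter sequence is shown for 4 of the ATF4-linked genes because they carry the composite ATF and CEBP element TTGCATCA, or its reverse complement TGATGCAA, before the start. The regions are chr2:119351009-119351096 (plus strand) for Chac1, chr1:191183396-191183483 (minus strand) for Atf3, chr3:50443614-50443719 (minus strand) for Slc7a11, which has 2 copies, and chr8:111033690-111033777 (plus strand) for Aars, all GRCm38.p6 from RefSeq, with the element in capitals.
Chac1: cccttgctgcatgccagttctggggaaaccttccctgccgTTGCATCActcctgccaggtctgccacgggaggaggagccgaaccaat
Atf3: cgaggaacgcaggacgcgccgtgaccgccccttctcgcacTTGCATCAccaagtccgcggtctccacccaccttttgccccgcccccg
Slc7a11: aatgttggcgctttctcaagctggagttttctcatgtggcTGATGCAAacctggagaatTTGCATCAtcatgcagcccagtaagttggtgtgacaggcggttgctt
Aars: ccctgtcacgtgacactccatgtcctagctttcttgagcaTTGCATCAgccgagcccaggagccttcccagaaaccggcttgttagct
The element was found for 5 of 15 genes of the ATF4 and CHOP list with a promoter (33.3%), 3 of 9 asparagine, proline and cystine genes (33.3%) and 4 of 13 cytosolic synthetases (30.8%), and for 0.895% of all promoters and 0.691% of tested genes with a promoter. None of the 101 and 109 oppositely moved genes with a promoter held it.

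Most transcripts of protein folding and turnover that were called were likewise lower with torin1. Of 25 ER chaperone and unfolded protein response genes 16 were higher with MK-8722 and 1, Dnajb9 (0.42), with torin1 (median -0.60). Hspa5, the ER chaperone BiP, was at 305 to 379 CPM with torin1, 705 to 828 CPM with MK-8722 and 739 to 865 CPM with DMSO. Xbp1, a transcription factor of this response, was at 13.4 to 18, 36.4 to 49.7 and 38.6 to 42.2 CPM, and Herpud1, of ER-associated degradation, was 2.52-fold lower with torin1. For Hspa5, Xbp1 and Herpud1 only torin1 was apart, and MK-8722 overlapped DMSO. Of 17 heat shock genes 15 were higher with MK-8722 and 1, Hspa8 (0.39), with torin1 (median -0.45). Hspa1b was 2.74-fold lower with torin1, although reads of its near-identical copy Hspa1a (-0.99) can be divided between the pair. Of 37 proteasome subunits 22 were higher with MK-8722 and none with torin1 (median -0.30), among them Psmd7 of the lid at 134 to 141 CPM with torin1, against 232 to 253 CPM with MK-8722.

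Ribosome and mitochondrial genes separated by function. Of 68 ribosome biogenesis genes 34 were higher with MK-8722 and 5 with torin1 (median -0.25). Bysl, needed for the small subunit, was at 50.2, 47.2, 47.8 and 44.6 CPM with torin1, at 91.2, 89.5, 88.9 and 90.7 CPM with MK-8722 and at 101, 102, 101 and 99.2 CPM with DMSO, so that torin1 lay far below the other groups (log2 -0.92, SE 0.05, adjusted p = 1.49e-12). Nolc1, a nucleolar chaperone, was 1.76-fold lower with torin1. Polr1c, a subunit shared by RNA polymerases I and III, was instead higher, at 89.7 to 91.6 CPM against 59.7 to 61.1 CPM with MK-8722. The ribosomal proteins themselves, whose transcripts carry TOP motifs and are controlled by MTORC1 mainly in translation, were not lower with torin1: 7 of 79 were higher with torin1 and none with MK-8722 (median 0.15). Rpl3 was at 1729 to 1840 CPM with torin1, 1233 to 1329 CPM with MK-8722 and 1255 to 1274 CPM with DMSO. Of 23 translation factors of the TOP class 7 were higher with torin1 and none with MK-8722, among them Eef2, the elongation factor that AMPK restrains through its kinase, 1.28-fold higher. The differences of ribosomal proteins were small, so that their number depended on the threshold: 62 of 79 had an FDR below 0.05 with no threshold on the fold change, and 27 were called higher with torin1 with library size alone.

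Of 78 nuclear oxidative phosphorylation genes 38 were higher with MK-8722 and 1 with torin1 (median -0.26), and of 78 mitochondrial ribosomal proteins 29 and 5 (median -0.17). Cycs, cytochrome c, was at 59.6, 50.8, 47.1 and 53.2 CPM with torin1 and at 132, 117, 131 and 132 CPM with MK-8722, 2.43-fold apart. Uqcrq of complex III was 1.85-fold lower with torin1. With MK-8722 neither differed from DMSO by the test (-0.15 with adjusted p = 0.0715 and -0.12 with adjusted p = 0.238). Ppargc1b, the coactivator PGC-1β of mitochondrial genes, was at 1.63 to 2.04 CPM with torin1, against 3.55 to 4.32 CPM with MK-8722, and it rose with MK-8722 (0.93, adjusted p = 0.00147) but not by the test with torin1 (-0.17, adjusted p = 0.525).

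Genes higher with torin1 included the FOXO factors and many of their targets. Of 25 tested, 12 were higher with torin1 and 4 with MK-8722, with a median of 0.26. Foxo3 was at 92.0, 96.6, 98.4 and 102 CPM with torin1, at 42.0, 44.3, 43.9 and 49.7 CPM with MK-8722 and at 41.3, 46.6, 44.4 and 48.7 CPM with DMSO. MK-8722 and DMSO overlapped fully, and torin1 was 2.16-fold above MK-8722 (log2 1.11, SE 0.08, adjusted p = 9.94e-11). Foxo1 was 1.83-fold higher with torin1. Fbxo32, a ubiquitin ligase of muscle atrophy, was at 28.4 to 32.8 CPM with torin1, 9.94 to 10.1 CPM with MK-8722 and 6.98 to 8.25 CPM with DMSO, and Irs2, the insulin receptor substrate, at 101 to 113, 60.0 to 64.6 and 42.5 to 48.7 CPM. For Fbxo32 and Irs2 both drugs were above DMSO, and torin1 was above MK-8722. Pdgfra, a growth factor receptor and fibroblast marker, was at 15.8 to 29.7 CPM with torin1, 4.21 to 7.42 CPM with MK-8722 and 4.60 to 5.90 CPM with DMSO. The 4 members higher with MK-8722 were Gadd45a (-1.27), a stress sensor, Bcl6 (-0.81), Sod2 (-0.51) and Trib1 (-0.40). Pik3ip1, an inhibitor of PI3K, differed 2.78-fold, with torin1 at 10.6 to 16.2 CPM and MK-8722 at 2.92 to 7.17 CPM.

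Genes of fatty acid oxidation were more often higher with torin1 than with the activator of AMPK. Of 29 oxidation genes and PPAR targets 12 were higher with torin1 and 2, Ppard (-0.43) and Ucp2 (-0.36), with MK-8722 (median 0.23). Cpt1a (chr19:3322334-3385733, plus strand), which loads fatty acids into mitochondria, was at 98.3, 105, 97.1 and 101 CPM with torin1, at 27.4, 32.7, 31.0 and 32.6 CPM with MK-8722 and at 29.2, 27.4, 31.8 and 32.9 CPM with DMSO. The 4 torin1 libraries were 3.25-fold above MK-8722 (log2 1.70, SE 0.06, adjusted p = 4.06e-15), and MK-8722 did not leave the DMSO range. Angptl4, a lipase inhibitor and PPAR target, was low throughout, at 1.40 to 1.76 CPM with torin1, against 1.26 to 1.48 CPM with DMSO, and lower still with MK-8722 at 0.251 to 0.421 CPM. Here the contrast (5.31-fold) came from a decrease with MK-8722. Coq8a, of coenzyme Q synthesis, was at 11.5 to 13.1 CPM with torin1, 1.41 to 2.57 CPM with MK-8722 and 2.47 to 2.61 CPM with DMSO. Mturn and Fmo5, a flavin monooxygenase, were 6.74-fold and 4.84-fold higher with torin1.

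**Figure D4:**
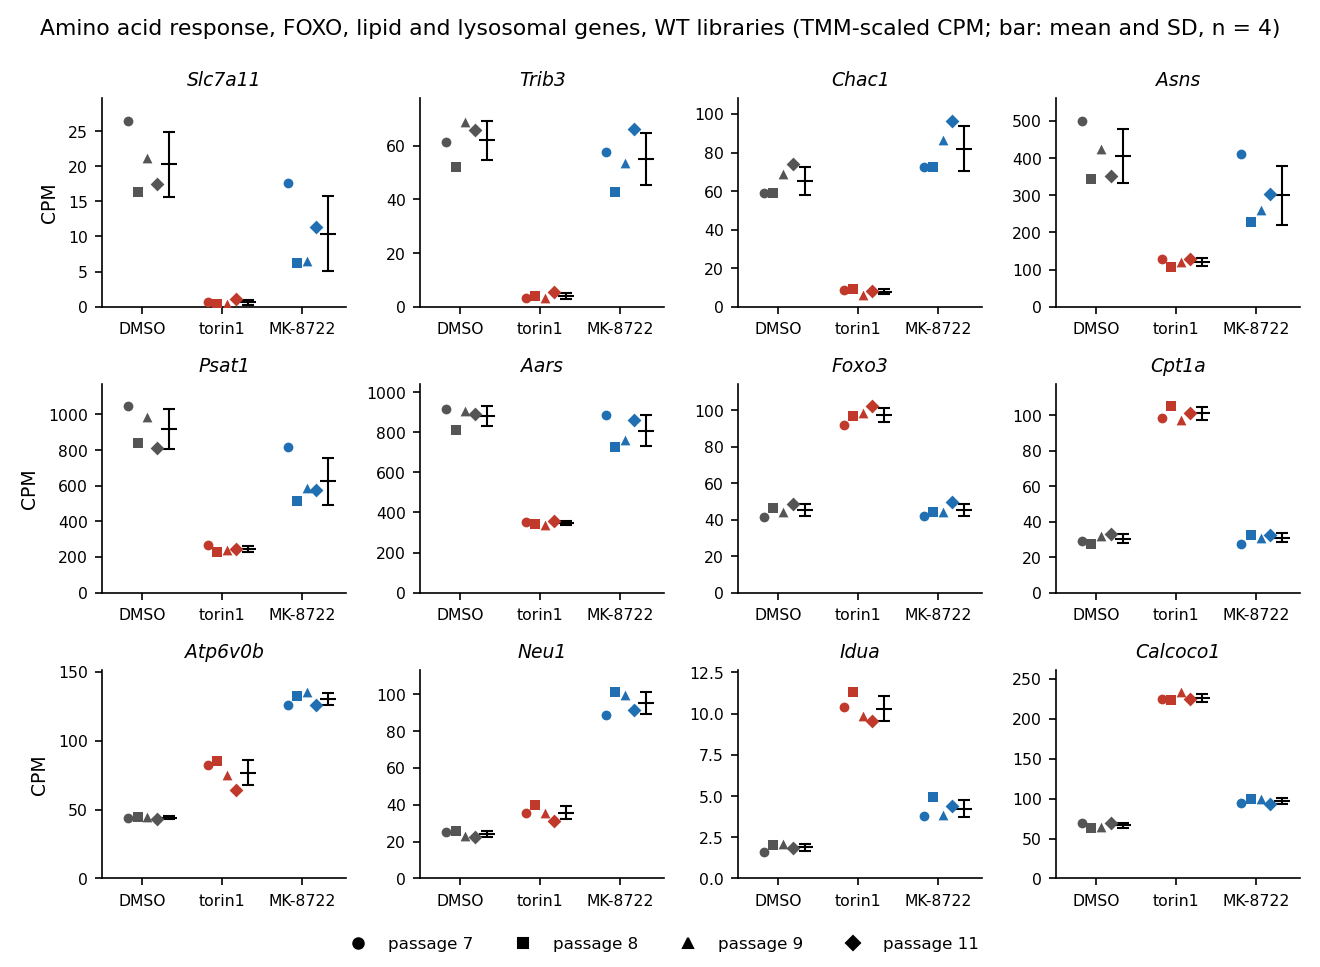
CPM (linear axis from 0) of 12 genes in WT MEFs with torin1, MK-8722 and DMSO, 1 point per library with its passage as the symbol, and bars for mean and SD (n = 4). Slc7a11, Trib3, Chac1, Asns, Psat1 and Aars are lowest with torin1, Foxo3 and Cpt1a are raised with torin1 alone, and Atp6v0b, Neu1, Idua and Calcoco1 are above DMSO with both drugs to unequal extents.

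Feedback genes of growth signalling were more often higher with MK-8722. Of 23 feedback genes of the ERK pathway 12 were higher with MK-8722 and 1, Etv1 (0.67), with torin1, with a median of -0.38, from -0.06 with torin1 and 0.29 with MK-8722 against DMSO. Etv1 lost its call under 5 of 27 alternatives, among them without the WT libraries of passage 11 (0.45). Dusp4, a nuclear phosphatase of ERK, was at 9.69, 9.49, 6.67 and 7.05 CPM with torin1, at 21.3, 24.5, 22.7 and 21 CPM with MK-8722 and at 5.32, 5.67, 4.60 and 4.40 CPM with DMSO. Both drugs were above DMSO, MK-8722 most (direct log2 -1.44, SE 0.13, adjusted p = 2.28e-09). Spry4, an inhibitor of receptor kinase signalling, was 2.66-fold and Dusp2 2.72-fold higher with MK-8722, both at under 4 CPM. Ptgs2, the inducible cyclooxygenase, was at 14.6 to 25.5 CPM with torin1, 50.3 to 68.0 CPM with MK-8722 and 17.2 to 23.1 CPM with DMSO, and Ccn2, a matricellular YAP target, at 65.0 to 95.7, 153 to 220 and 75.2 to 107 CPM. For Ptgs2 and Ccn2 torin1 overlapped DMSO and MK-8722 stood alone. The D-type cyclins, which drive entry into S phase, were all lower with torin1: Ccnd2 was at 32.8 to 41.5 CPM against 140 to 159 CPM with MK-8722 (4.12-fold), and Ccnd1 and Ccnd3 differed 1.55-fold and 1.49-fold. Mki67, a marker of cycling cells, was 1.30-fold higher with torin1 than with MK-8722, at 488 to 565 against 375 to 443 CPM. It lost its call by glmTreat, and the lists of cycling genes were divided. Of 30 mitosis genes, Mki67 among them, 7 were higher with torin1, 3 with MK-8722 and 20 were not called (median 0.05). Of 41 DNA replication genes 9 were higher with torin1 and 13 with MK-8722 (median 0.04). Whether the share of cycling cells differed was not tested.

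Lysosomal genes differed between the drugs by subgroup. Of the V-ATPase, hydrolase and membrane protein lists, only that of the V-ATPase was called more often than all genes tested (44.9% in either direction). Of 20 tested subunits of the V-ATPase, the proton pump of the lysosome, 11 were higher with MK-8722 and 2 with torin1, with a median of -0.34, from 0.21 with torin1 and 0.51 with MK-8722 against DMSO. Atp6v0b (chr4:117884326-117887333, minus strand), of the membrane sector, was at 82.2, 85.2, 75.2 and 64.4 CPM with torin1, at 126, 132, 135 and 126 CPM with MK-8722 and at 44.2, 44.7, 44.9 and 43.2 CPM with DMSO. The 3 ranges were separate, with MK-8722 highest (1.69-fold above torin1, log2 -0.76, SE 0.06, adjusted p = 2.79e-10). Atp6v1c1, Atp6v1h and Atp6v1a, of the catalytic sector, were 1.54-fold, 1.62-fold and 1.45-fold higher with MK-8722. For Atp6v1a the change with torin1 against DMSO was 0.21, under the fold threshold, against 0.74 with MK-8722.

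Of 46 lysosomal hydrolases 12 were higher with torin1 and 6 with MK-8722, with a median of 0.01, and of 33 lysosomal membrane proteins 4 and 5, with a median of -0.02. Neu1, the sialidase, was at 35.8, 39.9, 35.7 and 31.3 CPM with torin1, at 88.7, 101, 99.9 and 91.6 CPM with MK-8722 and at 25.4, 26.0, 23.3 and 22.7 CPM with DMSO, 2.67-fold higher with MK-8722 than with torin1. Idua, the iduronidase, had the opposite order, at 9.57 to 11.3 CPM with torin1, 3.78 to 4.93 CPM with MK-8722 and 1.60 to 2.08 CPM with DMSO. In both genes each drug was above DMSO in every library. Ctsf, a cathepsin, was 3.07-fold and Arsg, a sulfatase, 2.5-fold higher with torin1, and neither changed by the test with MK-8722 (0.14 and 0.10). Cd68, a lysosomal glycoprotein abundant in macrophages, was at 4.11 to 6.41, 10.1 to 14.3 and 1.54 to 2.24 CPM with torin1, MK-8722 and DMSO. For other members the difference did not pass the test: Mcoln1, the calcium channel, differed by 0.13 (SE 0.06, adjusted p = 0.0691), Lamp1 by -0.01 (SE 0.04, adjusted p = 0.855) and Sqstm1, the p62 receptor, by 0.12 (SE 0.11, adjusted p = 0.371). Fnip2, of the folliculin complex, was 1.45-fold higher with MK-8722 and Rragb, of the Rag GTPases, 1.68-fold higher with torin1.

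Of 46 autophagy genes 15 were higher with torin1 and 12 with MK-8722 (median -0.04). Calcoco1, a receptor for selective autophagy of the ER and Golgi, was at 224, 223, 233 and 224 CPM with torin1, at 94.8, 100, 99.9 and 92.6 CPM with MK-8722 and at 69.0, 63.6, 64.6 and 70.0 CPM with DMSO. The torin1 libraries were 2.33-fold above MK-8722 (log2 1.22, SE 0.05, adjusted p = 6.56e-15). Atg14, of the PI3K complex that starts autophagosomes, was at 29.2 to 34.7 CPM with torin1 and at 13.4 to 14.9 CPM with MK-8722, and Wipi1, which reads its lipid product, at 61.6 to 66.1 and 35.3 to 37.3 CPM. With MK-8722 neither Atg14 (-0.02) nor Wipi1 (-0.05) was called against DMSO. The genes higher with MK-8722 included Atg4d (-0.78), Atg4a (-0.73) and Atg16l1 (-0.50), of ATG8 processing and conjugation.

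The E-box CACGTG, which TFEB, TFE3 and many other helix-loop-helix factors bind, is shown for 2 V-ATPase genes raised more by MK-8722. Atp6v0b (chr4:117887330-117887405, minus strand) holds 2 copies and Atp6v1a (chr16:44139345-44139430, minus strand) 1, in capitals, from RefSeq (GRCm38.p6).
Atp6v0b: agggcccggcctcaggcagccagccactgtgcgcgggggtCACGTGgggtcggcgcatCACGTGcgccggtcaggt
Atp6v1a: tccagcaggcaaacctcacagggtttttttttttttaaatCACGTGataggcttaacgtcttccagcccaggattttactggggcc
CACGTG was found for 4 of 15 V-ATPase genes with a promoter (26.7%), 12 of 37 hydrolases (32.4%), 7.15% of all promoters and 11.6% of tested genes with a promoter. The longer TCACGTG, which contains it, was found for 4 of 15 (26.7%), 10 of 37 (27.0%), 3.77% and 6.87%.

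The same contrast in *tfeb tfe3* DKO MEFs used 8 other libraries, of which 1 with MK-8722 had a RIN of 7.9 while all others had at least 9.7. There 3253 genes (21.1%) were higher with torin1 and 2973 (19.3%) were higher with MK-8722. Of the 3833 genes higher with torin1 in WT 2291 had the same call in DKO, which is 59.8% of the WT and 70.4% of the DKO list, and 24 had the opposite call. Of the 3083 genes higher with MK-8722 in WT 2127 had the same call, 69.0% of the WT and 71.5% of the DKO list, and 47 the opposite. Of the oppositely moved genes 109 of 131 and 131 of 149 had the same direct call in DKO, and 17 and 45 were also moved in opposite directions from DMSO there. Without the library of RIN 7.9, 3185 and 2844 genes were called in DKO.

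**Figure D5:**
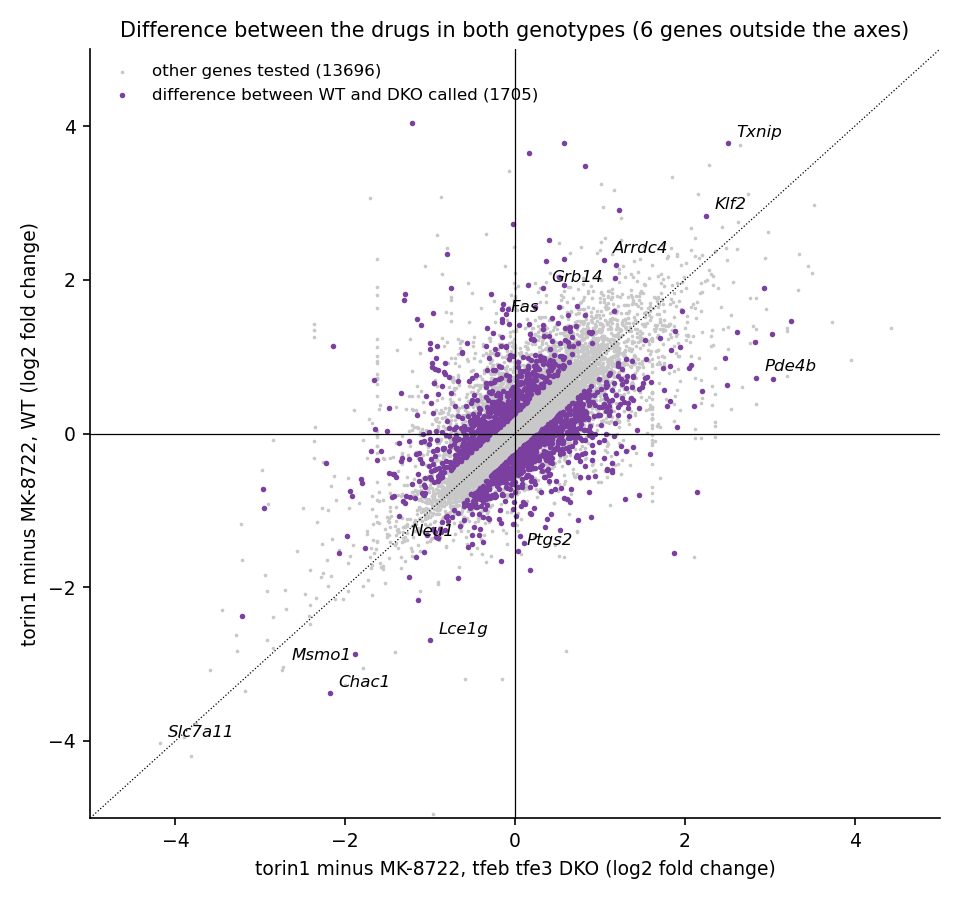
Log2 fold change of torin1 against MK-8722 in *tfeb tfe3* DKO MEFs (x axis) and in WT MEFs (y axis), 1 point per gene, from 8 libraries each that do not overlap. Points near the diagonal differ alike in both lines, as Msmo1 (-3.03 in WT and -2.74 in DKO) does, and Fas (1.49 and -0.15) and Ptgs2 (-1.53 and 0.04) lie near the vertical line at 0; 6 genes lie outside the axes.

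Of the sterol genes 22 of 24 were higher with MK-8722 in DKO, that is without TFEB and TFE3, and none with torin1 (median -1.35), and for none did the contrast differ between the genotypes by the test. Msmo1 differed by -2.74 and Hmgcs1 by -1.79. The V-ATPase subunits were higher with MK-8722 in DKO as well, 10 of 20 with a median of -0.30, and the difference of Atp6v0b was -0.78. The contrast itself, torin1 minus MK-8722, was tested for a difference between the genotypes. By sign it was more positive in WT for 745 genes (4.84%) and more negative for 960 (6.23%). For a gene higher with MK-8722, more negative means a larger difference in WT. By size, of the genes higher with torin1 in WT 377 were called as differing more in WT and 115 less. Of those higher with MK-8722 in WT 446 differed more and 80 less. Choosing genes by their call in WT favours a larger difference there. With library size alone the order of the counts by sign turned, to 1105 and 701. The counts by sign were 106 and 227 by the test against a fold change of 1.2 and 1263 and 1295 with passage as a block. With an offset for transcript length 480 genes were more positive in WT. Txnip and Arrdc4 were among the genes more positive in WT: Txnip differed by 3.78 in WT and by 2.5 in DKO (difference 1.28, adjusted p = 0.0124), and Arrdc4 by 2.26 and 1.05 (difference 1.21, adjusted p = 0.00564). Fas, higher with torin1 in WT, differed by -0.15 in DKO (difference 1.64, adjusted p = 1.20e-04).

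Of the 23 ERK feedback genes 11 had a more negative contrast in WT than in DKO and 1 a less negative one, and in DKO 5 were higher with MK-8722 and 5 with torin1 (median 0.02). Ptgs2 differed by -1.53 in WT and 0.04 in DKO (difference -1.56, adjusted p = 9.11e-06), and Ccn2 by -1.17 and -0.02 (difference -1.15, adjusted p = 0.00116). Of the 68 ribosome biogenesis genes 21 had a more negative contrast in WT, among them Bysl (log2 -0.92 in WT and -0.50 in DKO, difference -0.43, adjusted p = 4.01e-04), and the list was divided in DKO, with 13 genes higher with torin1 and 16 with MK-8722 (median 0.01). Genotype cannot be told apart from line here, since each genotype was 1 line and the passages differed (8, 9, 10 and 11 for DKO).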

How the data were processed

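mRNA of 24 cultures was sequenced with unique molecular identifiers. With the nf-core/rnaseq pipeline, the authors mapped reads by STAR to GRCm38 and quantified them with salmon, and they deposited estimated counts and TPM per gene and transcript. Salmon divides reads that near-identical copies share, so that values of such genes are uncertain. The batch that the authors removed with limma is not named in the sources used here, and the labels give a single batch. TPM were not used.

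The estimated counts of 55487 genes were rounded to whole numbers. Genes were kept by edgeR's filterByExpr (count minimum 10), which left 15401, and were scaled by TMM (factors 0.95 to 1.08). All 24 libraries were fitted in edgeR 4.0.16 (R 4.3.3) with 1 mean per group and 18 residual degrees of freedom (quasi-likelihood test in the form of edgeR 3, 2-sided, biological coefficient of variation 10.7%). Genes were called at a Benjamini-Hochberg FDR below 0.05 over all genes tested and a fold change of at least 1.2, the thresholds of the study. Contrasts were torin1 against MK-8722 in WT, each drug against DMSO in WT, torin1 against MK-8722 in DKO, and the difference of that contrast between WT and DKO. SEs were derived from the F statistic. The depth of 24668921 to 33332562 counts per library limits genes of few CPM, and floors cover counting error only. No pair of libraries of a group agreed within sampling noise (chi-square per degree of freedom 3.98 to 40.9 in 36 pairs).

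The members and the 52 gene lists were chosen with earlier results of these data known, and lists are described by counts and medians without a test. Named genes were the 12 largest differences per direction of the direct contrast and the 10 largest among genes moved in opposite directions, with at least 2 log2 CPM in the higher group, no overlap between libraries and no predicted genes, and up to 5 called members per list and direction; some are not reported here. Named outside this rule, for their role or to complete the account of a list, were Arrdc3, Atf4, Bcl2l11, Ddit3, Ebp, Iars, Lamp1, Mcoln1, Mmp11, Nupr1, Pfkfb3, Ppp1r15a, Sqstm1, Srebf1, Srebf2 and Tars. Gene positions are from GENCODE M21 and promoters, 250 bases before to 50 after a start, from RefSeq (GRCm38.p6).

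Whether replicate numbers or passages pair the libraries was checked from the deviations from group means. Between torin1 and MK-8722 in WT these correlated at -0.414, -0.062, 0.090 and 0.206 for equal replicate numbers and at 0.234, 0.241, 0.022 and 0.624 for equal passages. Between torin1 and DMSO equal passages correlated at 0.249, 0.286, 0.036 and 0.641. Libraries of equal passage thus shared part of their deviation. The direct contrast was fitted without a block, which leaves this shared part in its spread, and with a passage block 4102 and 3160 genes were called in it. Between MK-8722 and DMSO equal passages correlated at 0.317, 0.289, 0.136 and 0.657 and were taken to pair the libraries. All changes, adjusted p-values and calls given for single genes and lists against DMSO are nevertheless from the fit without a block. A change with MK-8722 that did not pass the test there could pass with the pairing, which was not examined gene by gene. For other counts the passage block is given where it moves them by over 1.5 times. On counts simulated for the contrast of torin1 with MK-8722 in WT, of which 15001 genes passed the filter, the test called 38 of 50 genes changed 1.5-fold, 47 of 50 changed 2-fold, 46 of 50 changed 4-fold and 49 of 50 changed 8-fold, and 7 of 15201 unchanged genes, genes that failed the filter being counted as not called. The simulated counts had no passage effect, and unchanged genes had the same mean in all groups. These rates therefore do not carry over to the real contrast, in which far more genes differed and passages shared deviations. Alternatives were other filters, scalings, tests (DESeq2 1.42.0, limma 3.58.1) and thresholds, an offset for transcript length, fits of fewer groups, blocks and single libraries left out. Leaving out the 3 WT libraries of passage 11 was chosen after seeing the data.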

Additional observations from a re-analysis of the deposited data

Results flagged for a closer look

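Single libraries far from the other 3 of their group were found for 16 of 390 groups (130 named genes in 3 WT groups), where chance gives about 1 group in 20. With torin1 these were Afap1l2 at 13.6 CPM, Mcoln1 at 95.5 CPM and Pik3ip1 at 16.2 CPM in replicate 1 (passage 11), Calcoco1 at 233 CPM in replicate 2 and Atp6v1h at 45.1 CPM in replicate 4. With MK-8722 they were Angptl4 at 0.421 CPM, Cycs at 117 CPM and Pde4b at 12 CPM in replicate 1, Acacb at 6.31 CPM in replicate 2 (passage 11), and Scd2 at 638 CPM and Slc7a1 at 239 CPM in replicate 4 (passage 7). With DMSO they were Hlf at 0.215 CPM and Mmp9 at 4.55 CPM in replicate 1, and Arntl at 17.6 CPM, Bdnf at 21.3 CPM and Ddb2 at 5.75 CPM in replicate 2 (passage 11).

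For 41 of the named genes the log2 difference of torin1 minus MK-8722 itself differed between WT and *tfeb tfe3* DKO MEFs by the test of that difference, each given here as WT minus DKO. It was more positive in WT for Fas (1.64), Grb14 (1.57), Txnip (1.28), Arrdc4 (1.21), Atoh8 (1.01), Zfp784 (0.85), Ddit4 (0.84), Deptor (0.77), Herpud1 (0.65), Rragb (0.61), Klf2 (0.59), Sesn2 (0.53), Ddb2 (0.40) and Mki67 (0.37). For Ddit4, Herpud1 and Sesn2, which were lower with torin1 in both lines, this means a smaller difference in WT.

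It was more negative in WT by over 1 log2 unit for Pde4b (-2.11), Lce1g (-1.69), Ptgs2 (-1.56), Col8a1 (-1.42), Chac1 (-1.21), Bdnf (-1.17), Ccn2 (-1.15), Timp3 (-1.09), Pdgfra (-1.04) and Atf3 (-1.02). Smaller differences of this sign were those of Mfsd2a (-0.98), Dusp4 (-0.94), Vegfa (-0.82), Ier3 (-0.80), Fnip2 (-0.57), Eif4ebp1 (-0.52), Pfkfb4 (-0.51), Bysl (-0.43), Fasn (-0.35), Irs2 (-0.34), Klf10 (-0.34), Cycs (-0.33), Nolc1 (-0.33), Srebf1 (-0.33), Calcoco1 (-0.31), Atp6v1c1 (-0.28) and Slc2a1 (-0.28). Bdnf and Col8a1 were higher with MK-8722 in WT (-0.74 and -0.84) and higher with torin1 in DKO (0.43 and 0.58). Pde4b, a cAMP phosphodiesterase, was higher with torin1 in both, by 0.73 in WT and 2.84 in DKO. Pdgfra, Irs2, Klf10 and Calcoco1 were likewise higher with torin1 in WT, so that for Pde4b and these genes the negative value means a smaller difference in WT. Srebf1 was not called between the drugs in WT.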

How the results depend on the processing

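Over 27 alternatives of the direct contrast in WT, none of the 6916 genes called in the direct contrast was called in the opposite direction, and 4879 (a test against a fold change of 1.2) to 6916 of them were called again. Genes up with torin1 and down with MK-8722 numbered 131, against 85 with no filter on low counts, 19 by the test against a fold change of 1.2, 349 by the FDR alone and 201 with a passage block. Genes down with torin1 and up with MK-8722 numbered 149, against 35 and 452 by those thresholds. In DKO 1962 in place of 2973 genes were higher with MK-8722 by the test against a fold change. By sign as torin1 minus MK-8722, the contrast was more positive in WT than in DKO for 745 genes, against 106 by that test, 480 with a transcript length offset and 1263 with a passage block. It was more negative in WT for 960, against 227 by that test. With library size alone they were 1105 and 701. With a replicate block, 3827 and 3071 genes were called in the direct contrast and 125 and 151 in opposite directions. With a passage block, these were 4102 and 3160, and 201 and 175. Leaving out single libraries gave 3504 to 3881 genes higher with torin1, 2990 to 3327 higher with MK-8722, and 98 to 135 and 136 to 174 in opposite directions. Of 10061 values of 374 named genes under an alternative 255 lost their call and 1 reversed: Pde10a changed from 1.25 to -0.12 with the transcript length offset. Ribosomal proteins higher with torin1 numbered 7, and 4 to 62 over the alternatives. Causes were not tested. Fgf21 and other genes of few counts are limited by depth.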

Other observations

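Circadian clock genes differed between the drugs in both directions: 11 of 21 tested were higher with MK-8722 and 6 with torin1 (median -0.28). Arntl, the activator BMAL1, was at 5.48 to 6.48 CPM with torin1, 12.6 to 14.3 CPM with MK-8722 and 17.6 to 20.8 CPM with DMSO, and its partner Clock at 31.0 to 32.8, 61.7 to 68.4 and 52.6 to 56.6 CPM. Neither showed overlap between torin1 and MK-8722 (log2 -1.21, adjusted p = 7.37e-07 and log2 -1.02, adjusted p = 6.56e-15). The repressors Cry1 and Ciart were lower with torin1 than with MK-8722 as well, 2.65-fold and 4.92-fold. Bhlhe40, a repressor of the clock that responds to many stimuli, was raised by MK-8722 alone, at 39.0 to 61.7 CPM against 18.7 to 23.3 CPM with torin1 and at 14.3 to 20 CPM with DMSO. Hlf, a clock output factor, was higher with torin1 (7.83-fold), at 1.44 CPM or less.

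Among matrix genes, of 26 proteases, inhibitors and lysyl oxidases 10 were higher with MK-8722 and 6 with torin1 (median -0.08). Of all 15401 genes tested, 3083 were higher with MK-8722 and 3833 with torin1. By share, the list thus exceeded all genes tested for MK-8722 but not for torin1. The 6 genes higher with torin1 were all matrix metalloproteinases, Mmp9 (1.66), Mmp3 (1.47), Mmp10 (1.41), Mmp13 (1.37), Mmp23 (0.78) and Mmp11 (0.61). The inhibitor Timp3 (-1.08) was higher with MK-8722. Mmp3 (1.45) and Mmp13 (1.25) were not called by limma voom, and Mmp23 was not called without torin1 replicate 3 (0.61). Timp3 was at 114 to 169 CPM with torin1, 195 to 430 CPM with MK-8722 and 110 to 184 CPM with DMSO. Of 28 collagens 9 were higher with MK-8722 and 3 with torin1. Col1a1 was at 754, 895, 1113 and 1609 CPM with torin1 and at 1417, 1575, 1903 and 2483 CPM with MK-8722 from passage 7 to 11, so that the groups overlapped while torin1 was lower at each passage (log2 -0.76, SE 0.21, adjusted p = 0.0036).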
